A study of Rattus norvegicus with 4 samples.

Results

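The leptin receptor (Lepr), growth hormone receptor (Ghr), prolactin receptor (Prlr), insulin receptor (Insr), insulin-like growth factor 1 receptor (Igf1r), insulin-like growth factor 2 receptor (Igf2r), leukemia inhibitory factor receptor (Lifr) and the shared signal transducer gp130 (Il6st) were taken by name from the lists of N6-methyladenosine (m6A) peaks. All 8 genes had at least 1 peak at both ages. This was common, since of 14737 genes marked at either age the 5-week list named 14036 and the 3-week list 13485. The 8 receptor genes held 18 of the 33056 peaks listed at 5 weeks and 12 of the 29653 listed at 3 weeks.

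RNA came from the hypothalamic arcuate nucleus (ARC) of female Sprague-Dawley rats, at 5 weeks of age (libraries labelled ARC_352), set against 3 weeks of age (libraries labelled ARC_212). The labels give ARC_352 and ARC_212, and the ages come from the study's methods; no treatment is named for either. Each age was 1 pool of tissue from 3 rats, sequenced as 1 library of RNA pulled down with an antibody to m6A (IP) and 1 library of input RNA, 4 libraries in all. There are no replicates, so every value below stands for a single pool, no difference between the ages could be tested, and rat-to-rat spread is unknown. The files give no read counts, so the depth behind each peak is also unknown.

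m6A is a methyl mark on adenosines of messenger RNA, placed by a nuclear methyltransferase complex and read by proteins that can alter the stability and translation of the transcript. In most mRNAs it gathers around the stop codon and in the 3' UTR. The receptors described here carry hormone signals of energy stores and growth to cells of the ARC. Leptin, growth hormone, prolactin and the gp130 cytokines act through receptors without a kinase of their own, which recruit Janus kinases and STAT transcription factors. Insulin and IGF1 act through receptor tyrosine kinases that signal to PI3K and Akt, whereas the IGF2 receptor, which also binds mannose 6-phosphate, carries IGF2 and lysosomal enzymes to lysosomes.

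A peak's strength is its log2 enrichment, the log2 of IP over input signal as the authors' peak caller gave it. Over all peaks the median log2 enrichment was 2.81 at 5 weeks and 3.17 at 3 weeks, and 74.5% of 5-week peaks overlapped a 3-week peak while 83.1% of 3-week peaks overlapped a 5-week one. Peaks were called on each age alone, and a separate list, the comparison list, holds 12704 regions whose enrichment differed between the ages at an authors' p under 0.05. Its median difference, 5 weeks minus 3 weeks, was -0.95 log2 units over all regions, so values from it are given beside that shift. Of the arcuate neuron markers, Npy, Cartpt and Th carried a peak at both ages and Pomc and Tac3 at 5 weeks, whereas Agrp, Ghrh, Kiss1 and Slc6a3 had none at either age, and a gene without a peak may still be transcribed. All 5 astrocyte, all 5 oligodendrocyte and all 5 microglia markers had a peak at both ages, and so had 4 of 5 markers of endothelium and pericytes and 3 of 5 of choroid plexus (Kcnj13, Clic6 and Otx2, with none in Ttr and Folr1). Meningeal markers had 9 peaks at 5 weeks and 3 at 3 weeks, tanycyte and ependymal markers 10 and 9, ventromedial nucleus markers 6 and 3 with Fezf1 marked at 5 weeks alone, and of 6 pituitary hormone genes Lhb alone had 1 peak, at 3 weeks. In pooled tissue, fewer cells of a type and less RNA per cell cannot be told apart, and the part of cell makeup in the values below was not tested.

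The 8 receptor transcripts were marked mainly at their 3' ends. A peak annotated to the stop codon was present in 7 of the 8 genes at 5 weeks and in 6 at 3 weeks, against 53.7% and 53.8% of all genes with a peak. In each gene with a stop codon peak that peak was the gene's strongest, and Il6st had its strongest peak annotated to the 3' UTR at 5 weeks and to an exon at 3 weeks. The median log2 enrichment of the receptor peaks was 3.14 (8.79-fold over input) over 18 peaks at 5 weeks, against 4.18 (18.1-fold) over 12 at 3 weeks. Those sets are unlike, and over the 12 peaks at 5 weeks that overlapped a 3-week peak the median was 3.36. Medians over all peaks were 2.81 at 5 weeks and 3.17 at 3 weeks. For the stop codon peaks alone the receptor median was 3.62 at 5 weeks, beside 3.54 over all stop codon peaks of that age, and 4.76 at 3 weeks, beside 4.11. Lepr counts in the first of these medians alone, since its 3-week peak was annotated to an exon, and over the 6 genes with a stop codon peak at both ages the median was 3.87 at 5 weeks, against 4.76 at 3 weeks.

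**Figure D1:**
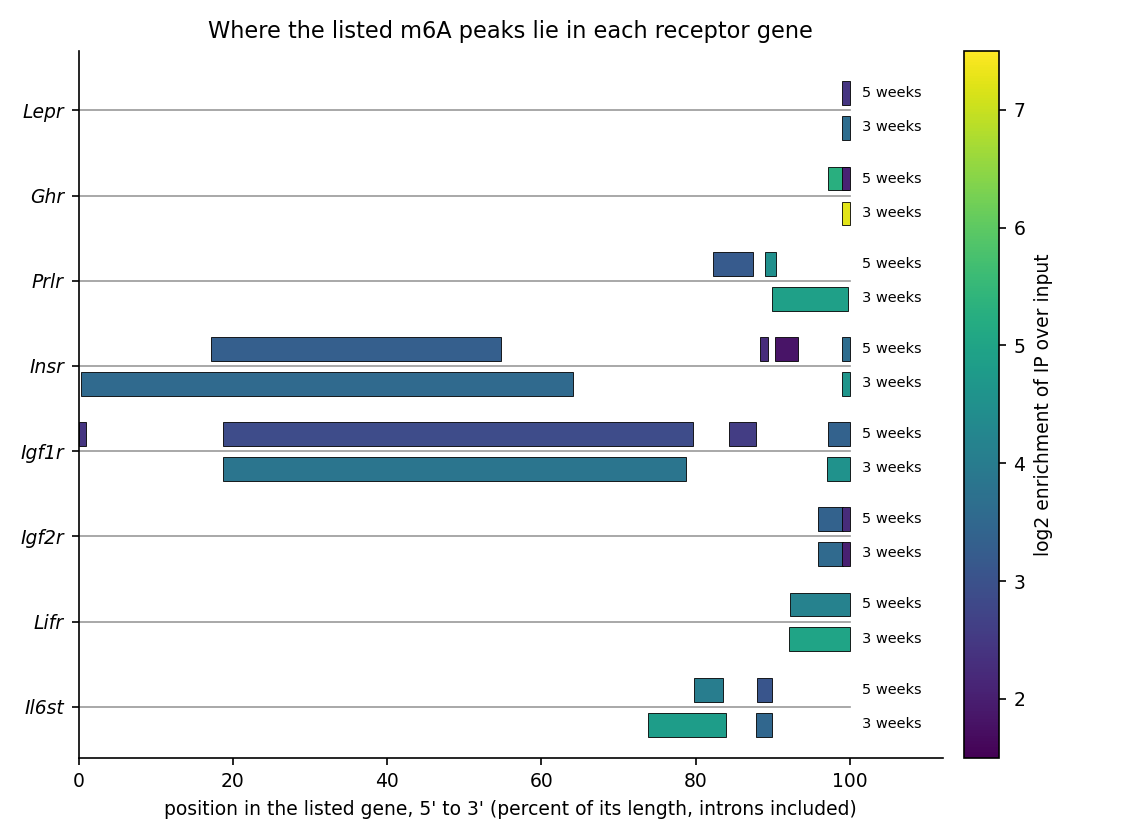
Position of every listed m6A peak in the 8 receptor genes, as a percent of the gene's listed length from its 5' to its 3' end with introns included, with 5 weeks above 3 weeks for each gene; color is log2 enrichment of IP over input, peaks narrower than 1 percent of the gene are drawn 1 percent wide, and a wide bar is a peak whose bounds span introns. Every gene has a peak toward its 3' end at both ages, and Insr and Igf1r also carry wide exonic peaks farther 5'.

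Lepr (ENSRNOG00000023664), whose long form in arcuate neurons senses circulating leptin, had 1 peak at each age, at the extreme 3' end of the gene. At 5 weeks it lay on the plus strand at chr5:116475216-116475865 (coordinates as the lists give them; no rat build was named in the sources used here), was annotated to the stop codon, ended 43 bases before the gene's listed end and had a log2 enrichment of 2.43 (5.40-fold). At 3 weeks it began at the same base, ended at 116475740, was annotated to an exon and had a log2 enrichment of 3.61 (12.2-fold). The difference was -1.18 log2 units, a ratio of 0.441. It was the weakest stop codon peak of the 8 genes, at the 13.9th percentile of all stop codon peaks at 5 weeks.

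The 5' part of the Lepr gene is shared with Leprot, which encodes a small protein that limits leptin receptor display at the cell surface. A Leprot peak annotated to its 3' UTR was listed at chr5:116301561-116359212 at both ages, with a log2 enrichment of 2.25 at 5 weeks, against 2.50 at 3 weeks. It ran 57224 bases past the listed end of Leprot, inside the listed bounds of Lepr, so its reads could come from either transcript. No peak of another gene lay within the bounds of the other 7 receptors.

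Ghr (ENSRNOG00000015654), which dimerizes around growth hormone and recruits JAK2, carried the strongest peak of the 8 genes at both ages. Its stop codon peak on the minus strand of chromosome 2 had a log2 enrichment of 5.28 (38.8-fold) at 5 weeks, against 7.24 (151-fold) at 3 weeks. These values stood at the 95.4th percentile of all 5-week peaks and at the 97.7th of all 3-week peaks. The difference of -1.96 log2 units was the lowest of the 12 receptor peaks that could be paired between the ages, and 3.24% of all pairs lay below it. The bounds differed between the ages. Both spans started at base 52543069, toward the gene's 3' end, but the 5-week peak ran to 52550065 (6997 bases) and the 3-week peak to 52544243 (1175 bases), so that the pair compares regions of unequal width.

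The comparison list gives both ages over 1 region and so does not depend on those unequal bounds. There the Ghr stop codon region, chr2:52543019-52544702, had a log2 enrichment of 5.16 at 5 weeks, against 7.40 at 3 weeks, a difference of -2.24 and a ratio of 0.211. The difference stayed at -1.29 once the list's own median was subtracted. At 5 weeks Ghr had a second, unpaired peak in its 3' UTR at chr2:52542594-52542993, the last 400 bases of the gene, with a log2 enrichment of 2.04 (4.11-fold).

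Prlr (ENSRNOG00000057557), the receptor through which prolactin acts on tuberoinfundibular dopamine neurons and other ARC cells, had 2 peaks at 5 weeks and 1 at 3 weeks, on the plus strand of chromosome 2. The stop codon peaks had a log2 enrichment of 4.50 (22.6-fold) at 5 weeks, against 4.90 (29.8-fold) at 3 weeks, a difference of -0.40. After Ghr this was the second strongest stop codon peak of the 8 genes at 5 weeks. The overlap between the ages was small, because the 5-week peak covered chr2:59303642-59306505 and the 3-week peak chr2:59305531-59324144. They shared 975 bases, 34.0% of the 5-week peak and 5.24% of the 3-week peak, and Prlr was not in the comparison list, so the difference rests on that overlap alone. The remaining 5-week peak, annotated to an exon at chr2:59290944-59300804, had a log2 enrichment of 3.20 (9.18-fold) and was the strongest of the receptor peaks listed at 5 weeks without a 3-week partner.

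Lifr (ENSRNOG00000011696) and Il6st (ENSRNOG00000013963) form the heterodimer that binds leukemia inhibitory factor and take part in the receptor of ciliary neurotrophic factor. Il6st also serves the receptors of IL-6, IL-11 and oncostatin M. Both genes lie on the plus strand of chromosome 2. Lifr had 1 stop codon peak at each age, reaching to 1 base from the gene's listed end. Its log2 enrichment was 4.13 (17.5-fold) at 5 weeks over chr2:56283835-56286698 and 5.01 (32.2-fold) at 3 weeks over chr2:56283785-56286698, a difference of -0.88. In the comparison list the same region gave 3.96 at 5 weeks and 5.08 at 3 weeks, a difference of -1.13 and a ratio of 0.458.

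Il6st had 2 peaks at each age and none annotated to the stop codon. The first lay at chr2:44101066-44102715 at 5 weeks, in the 3' UTR, and at chr2:44098436-44102915 at 3 weeks, where its wider bounds were annotated to an exon. Its log2 enrichment was 4.03 (16.3-fold) at 5 weeks and 4.81 (28.0-fold) at 3 weeks, and the caller's p was listed as 0 at both ages. The second lay farther 3', at chr2:44104666-44105515 at 5 weeks and chr2:44104591-44105490 at 3 weeks, with a log2 enrichment of 3.07 (8.42-fold) at 5 weeks, against 3.48 (11.2-fold) at 3 weeks. The paired differences were -0.78 for the first and -0.41 for the second.

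The comparison list gave the first Il6st region 3.79 at 5 weeks and 5.02 at 3 weeks, a difference of -1.22, and the second 3.01 and 3.64, a difference of -0.63. The 2 peaks of this gene, annotated to different transcripts, thus differed in size of change. The second was lower at 5 weeks as listed but stood at +0.32 once the list's median was subtracted, the only receptor region whose direction turned with that centring, whereas the first stood at -0.27.

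Insr (ENSRNOG00000029986), the receptor tyrosine kinase for insulin, had 4 peaks at 5 weeks and 2 at 3 weeks, all on the minus strand of chromosome 12. The stop codon peak, chr12:1197275-1198324 at 5 weeks and chr12:1197375-1198324 at 3 weeks, had a log2 enrichment of 3.62 (12.3-fold) at 5 weeks, against 4.62 (24.6-fold) at 3 weeks. The difference was -1.003, a ratio of 0.499, and the comparison list gave 3.46 and 4.63 for the same region, a difference of -1.17. Farther 5', an exonic peak spanned chr12:1257614-1307965 at 5 weeks and chr12:1245088-1330474 at 3 weeks, with a log2 enrichment of 3.30 (9.87-fold) at 5 weeks, against 3.55 (11.7-fold) at 3 weeks.

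The 2 marked parts of the Insr transcript differed in size of change, with -1.003 at the stop codon and -0.24 in the exonic peak. Over all pairs the medians also stood apart, at -0.48 for stop codon and -0.17 for exonic pairs. The Insr exonic pair lay at the 45.5th percentile of exonic pairs. It compares unequal spans, 50352 bases at 5 weeks and 85387 at 3 weeks. The spans of the exonic peaks are genomic and hold introns, so they say nothing of the length of marked RNA. The other 2 Insr peaks were listed at 5 weeks alone. They lay in exons at chr12:1206113-1210200 and chr12:1211948-1212047, with log2 enrichments of 1.82 (3.52-fold) and 2.25 (4.76-fold), and the first of these was the weakest peak of the 8 genes.

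Igf1r (ENSRNOG00000014187), the receptor tyrosine kinase through which IGF1 acts, had 4 peaks at 5 weeks and 2 at 3 weeks on the plus strand of chromosome 1. Its stop codon peak, chr1:121823617-121831745 at 5 weeks and chr1:121823517-121831770 at 3 weeks, had a log2 enrichment of 3.35 (10.2-fold) at 5 weeks, against 4.53 (23.1-fold) at 3 weeks, a difference of -1.18. Its exonic peak, chr1:121603500-121774551 at 5 weeks and chr1:121603450-121771995 at 3 weeks, had 2.88 (7.35-fold) at 5 weeks and 3.83 (14.2-fold) at 3 weeks, a difference of -0.95. Both parts of the Igf1r transcript were thus lower at 5 weeks by similar amounts in the separate lists. In the comparison list they stood apart, with 3.16 at 5 weeks and 5.04 at 3 weeks for the stop codon region (difference -1.88, ratio 0.272) and 2.77 and 3.86 for the exonic region (difference -1.09, ratio 0.469).

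The remaining Igf1r peaks were listed at 5 weeks alone. One covered the first 125 bases of the gene, chr1:121550743-121550867, was the only receptor peak annotated to a start codon and had a log2 enrichment of 2.43 (5.38-fold). The other, an exonic peak at chr1:121787556-121797311, had 2.56 (5.88-fold).

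Igf2r (ENSRNOG00000014997), which clears IGF2 from the cell surface, on the plus strand of chromosome 1, differed least between the ages. Its stop codon peak, chr1:48063785-48066684 at 5 weeks and chr1:48063810-48066634 at 3 weeks, had a log2 enrichment of 3.36 (10.3-fold) at 5 weeks, against 3.56 (11.8-fold) at 3 weeks, a difference of -0.20. A 3' UTR peak over the last bases of the gene, chr1:48067310-48067501 at 5 weeks and chr1:48067360-48067501 at 3 weeks, had 2.23 (4.70-fold) at 5 weeks and 2.03 (4.08-fold) at 3 weeks, a difference of +0.20. That was the only receptor pair higher at 5 weeks, and Igf2r was absent from the comparison list.

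**Figure D2:**
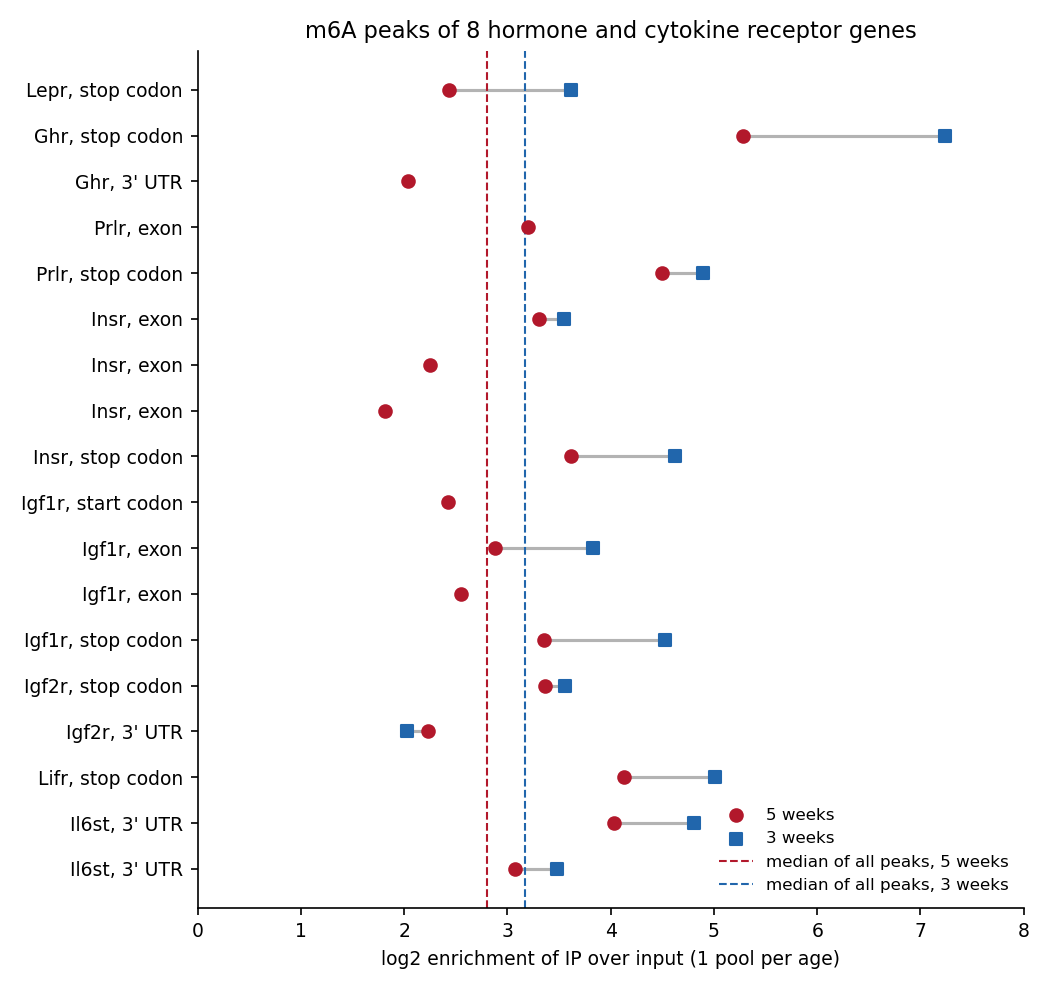
Log2 enrichment of IP over input for each receptor peak, named by gene and by its annotation at 5 weeks and ordered 5' to 3' within a gene; red circles are 5 weeks, blue squares the overlapping peak at 3 weeks (1 pool each, no error bars), and dashed lines the medians of all peaks of each age. The 3-week value lies to the right in 11 of 12 pairs, Ghr lies farthest right at both ages, and the 6 circles without a square run from 1.82 to 3.20.

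Peaks were found again across the ages in 1 direction more than the other. All 12 receptor peaks listed at 3 weeks overlapped a 5-week peak of the same gene, beside 83.1% over all peaks, and 12 of the 18 listed at 5 weeks overlapped a 3-week peak, beside 74.5%. The 6 without a partner belonged to Ghr, Prlr, Insr and Igf1r and had a median log2 enrichment of 2.34, below the 3.36 of the 12 with one. Over all 5-week peaks the same order held, 2.24 without and 3.08 with a partner. A peak missing from 1 list may lie just under the caller's threshold. Genes of this set averaged 2.25 peaks at 5 weeks and 1.5 at 3 weeks, beside 2.36 and 2.20 over all genes with a peak.

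Of the 12 pairs, 11 were lower at 5 weeks, beside 68.8% of all 18130 pairs, and the median difference was -0.83 log2 units, beside -0.29 over all pairs. Relative to that shift, 9 of the 12 lay below the median of all pairs. The 3 above it were the Insr exonic peak and both Igf2r peaks, and relative to it the Insr exonic and Igf2r stop codon peaks, lower at 5 weeks as they stand, turn to higher. Pairs are named by their 5-week annotation, so Lepr counts as a stop codon pair although its 3-week peak was annotated to an exon. Set against pairs of their own annotation, 9 of the 12 again lay below the median, with Prlr at the 55.1st percentile of stop codon pairs and the 2 Igf2r peaks at the 67.8th and 80.5th percentiles above it. The 7 stop codon pairs had a median of -1.003, beside -0.48 over the 5309 stop codon pairs, and all 7 were lower at 5 weeks, beside 77.8%. Differences of at least 2-fold downward were seen in 4 pairs, those of the stop codons of Ghr, Lepr, Igf1r and Insr, beside 14.2% of all pairs and 18.1% of stop codon pairs, and no receptor pair was at least 2-fold higher, beside 4.57%.

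**Figure D3:**
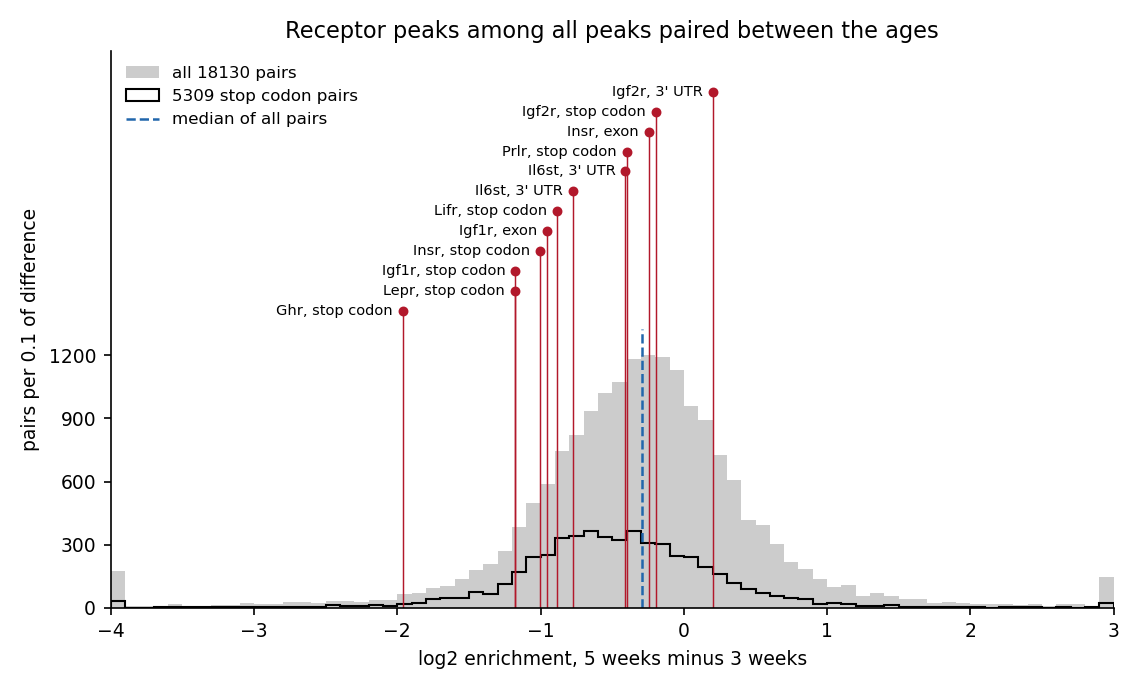
Differences in log2 enrichment, 5 weeks minus 3 weeks, for the 12 receptor pairs (red, named by gene and 5-week annotation; their height carries no value) over the number of pairs per 0.1 of difference among all 18130 pairs (gray) and the 5309 stop codon pairs (black line), with values beyond the axis drawn in the end bins. Ghr lies farthest left at -1.96, and the Insr exonic and both Igf2r peaks lie right of the median of all pairs (dashed, -0.29).

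The comparison list named 5 of the 8 receptors, beside 58.2% of all genes with a peak, and held 7 of their regions. By a fold of at least 2, 6 of the 7 were weaker at 5 weeks, beside 46.9% of all listed regions, and 0 were stronger, beside 10.6%. These 6 regions lay in Ghr, Insr, Igf1r, Lifr and Il6st, so 5 of the 8 receptors had a weaker region, beside 32.4% of all genes with a peak. The 4 stop codon regions among them were all weaker, beside 49.4% of listed stop codon regions. The median receptor difference was -1.17, beside -0.95 over the list. Since the list holds only regions the authors' test passed and was itself shifted downward, a share of weaker regions here is read against 46.9% and not against none. Once its median was subtracted, the Ghr stop codon region alone remained at least 2-fold lower, beside 13.3% of all listed regions, with the Igf1r stop codon region next at -0.92 and the other 5 between -0.27 and +0.32. Lepr, Prlr and Igf2r were not in the list.

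A lower enrichment did not always come with a weaker p. Among the 10 receptor pairs that were lower at 5 weeks and had a caller p above 0 at both ages, 3 had the smaller p at 5 weeks, namely Ghr, Prlr and the second Il6st peak, beside 33.9% of 10645 such pairs. For Ghr the 5-week peak had the lower enrichment, the smaller p and the wider bounds.

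By the KEGG labels in the lists, 5 of the 8 receptors fell under JAK-STAT signaling, 4 under PI3K-Akt signaling and 3 under neuroactive ligand-receptor interaction. Genes that act with them were read from 10 lists, each beside the same background of 46.9% weaker and 10.6% stronger regions. Each of the 7 receptor regions of the comparison list overlapped a peak in the separate lists of both ages, which was not so for every related region named here, and where it was not, that is said. Of 14 ligand genes of these receptors, Igf1, Igf2 and Cntf had a peak at both ages, and no peak was listed for the rest, Lep, Gh1, Prl, Ins1, Ins2, Lif and Il6 among them. Igf2, the ligand that Igf2r clears, had an exonic region with a log2 enrichment of 2.96 at 5 weeks, against 8.07 at 3 weeks, a difference of -5.11. A second exonic region of Igf2 differed by -0.89 (2.00 at 5 weeks, against 2.89 at 3 weeks). The overlapping peaks of the separate lists had 3.24 at 5 weeks and 7.91 at 3 weeks for the first region. For the second they had 3.51 and 3.67, which lay closer together than in the comparison list. Among the IGF binding proteins, which hold IGFs in the extracellular space, 2 regions were weaker and 1 was stronger of 5. Igfbp2 was higher at 5 weeks (2.60, against 0.90 at 3 weeks, with no peak in the 3-week list), while Igfbp3 (2.01, against 3.11) and a region of Igfbp5 (3.27, against 4.40) were lower. In the separate lists the overlapping peaks had 2.42 at 5 weeks and 3.08 at 3 weeks for Igfbp3, and 3.43 and 4.28 for Igfbp5.

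Downstream of Lepr, Ghr, Prlr, Lifr and Il6st, the list of JAK kinases and STATs had 5 regions, of which 0 were weaker and 1 was stronger. That was an exonic region of Stat5b, a main effector of growth hormone and prolactin, with 3.07 at 5 weeks and 1.44 at 3 weeks, where the overlapping peaks of the separate lists had 2.72 and 2.54. The feedback list of SOCS proteins, PIAS proteins and phosphatases had 17 regions, with 11 weaker and 0 stronger. Its largest differences were in Cish (1.91 at 5 weeks, against 5.46 at 3 weeks, with no overlapping peak in the 5-week list), a STAT5-induced inhibitor, and in the phosphatases Ptpn1 (2.40, against 3.99) and Ptpn2 (2.52, against 3.95), which act on leptin and insulin signaling.

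Receptor adaptors had 5 weaker and 3 stronger of 19. Sh2b2 (2.99 at 5 weeks, against 7.14 at 3 weeks) and Sos2 (3.77, against 5.41) were lower. Shc1 had a 3' UTR region at 1.62 at 5 weeks and 8.38 at 3 weeks that overlapped no peak in either separate list, and an exonic region that differed the other way (4.18 at 5 weeks, against -0.39 at 3 weeks) and overlapped a 5-week peak alone, at 3.03. The strongest Shc1 peak of the separate lists had 3.24 at 5 weeks and 2.44 at 3 weeks, so the direction for Shc1 is not settled by these values.

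Receptors related to the 8 had more weaker than stronger regions, as had the list over all genes. Other cytokine receptor chains had 9 weaker and 0 stronger of 11 regions, among them 2 partners of gp130, Il6r (3.23 at 5 weeks, against 5.98 at 3 weeks) and Osmr (3.49, against 5.61), and the 5' UTR of Il12rb2 (-2.15, against 2.82, with no overlapping peak in the 5-week list). The strongest overlapping peaks of the separate lists had 3.55 at 5 weeks and 4.89 at 3 weeks for Il6r, closer together than in the comparison list, and 3.72 and 5.58 for Osmr. Other receptor tyrosine kinases had 10 weaker and 0 stronger of 12, with Fgfr1 (1.51 at 5 weeks, against 6.36 at 3 weeks, with no 5-week peak) and Kdr (2.67, against 4.17) among them. Other metabolic hormone receptors had 10 weaker and 0 stronger of 10, led by the melanocortin receptor Mc4r (3.60 at 5 weeks, against 9.07 at 3 weeks) and the GLP-1 receptor Glp1r (2.95, against 7.30). In both of these lists 1 large difference ran opposite to the separate lists. Met had 2.06 at 5 weeks and 8.11 at 3 weeks, and the cholecystokinin receptor Cckbr 3.20 and 8.24, yet each had 2 peaks in the 5-week list and 0 in the 3-week list.

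Genes that process or move receptors were mixed. The lysosomal sorting list, which holds partners of Igf2r, had 3 weaker and 2 stronger of 11, with Snx1 (1.47 at 5 weeks, against 3.77 at 3 weeks) and Gga2 (1.62, against 3.55, with no 5-week peak in that region) lower. For Snx1 the overlapping peaks of the separate lists had 1.96 at 5 weeks and 3.53 at 3 weeks. The 5' UTR of the retromer subunit Vps35 was higher (3.83, against 1.76), where the overlapping peaks of the separate lists had 2.24 at 5 weeks and 2.35 at 3 weeks. Receptor processing and transport had 4 weaker and 2 stronger of 10. The ubiquitin ligase Cblb had an exonic region that was higher (4.04 at 5 weeks, against 2.36 at 3 weeks) and a stop codon region that was lower (3.45, against 4.67). For the exonic region the overlapping peaks of the separate lists had 2.87 at 5 weeks and 2.28 at 3 weeks. The 3' UTR of the protease Furin, which cleaves the precursors of Insr and Igf1r, was lower (1.39, against 3.50, with no overlapping 5-week peak). The 5' UTR of the protease Adam10 had 6.38 at 5 weeks and 0.08 at 3 weeks over 100 bases, with no overlapping 3-week peak. The overlapping 5-week peak had only 1.89 in the separate list.

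The counts of the related lists depend on the shift of the comparison list. With its median subtracted, 13.3% of all listed regions were at least 2-fold lower. The share at least 2-fold higher was not worked out, so the higher counts below have no background. Lower and higher counts were 1 and 0 of 7 regions for the 8 receptors and 1 and 0 of 17 for the feedback list. The same counts were 3 and 0 of 11 for the other cytokine receptor chains and 2 and 0 of 12 for the other receptor tyrosine kinases. For the other metabolic hormone receptors they were 4 and 0 of 10, and for the ligands 1 and 0 of 2. They were 0 and 2 of 5 for the IGF binding proteins, 0 and 3 of 5 for the JAK kinases and STATs and 2 and 4 of 19 for the adaptors. The sorting list had 1 and 6 of 11 and the processing list 1 and 2 of 10. Without subtraction, the ligand median beside the -1.17 of the receptors was -3.00, from 2 regions of Igf2 alone, at -5.11 and -0.89. The medians were -1.73 for the other metabolic hormone receptors, -1.37 for the other cytokine receptor chains and -1.30 for the other receptor tyrosine kinases. They were -1.09 for the feedback list, -0.997 for the IGF binding proteins, -0.93 for the processing list, -0.77 for the adaptors, +0.45 for the JAK kinases and STATs and +0.48 for the sorting list. Over pairs of the separate lists, each related list had a negative median, beside -0.83 for the receptors and -0.29 over all pairs. Those medians ran from -0.66 for the IGF binding proteins to -0.16 for the ligands. The lists of other receptors had -0.62 for cytokine receptor chains over 17 pairs, -0.39 for metabolic hormone receptors over 10 and -0.35 for receptor tyrosine kinases over 23. Medians were -0.26 for the JAK kinases and STATs and -0.17 for the sorting list.

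**Figure D4:**
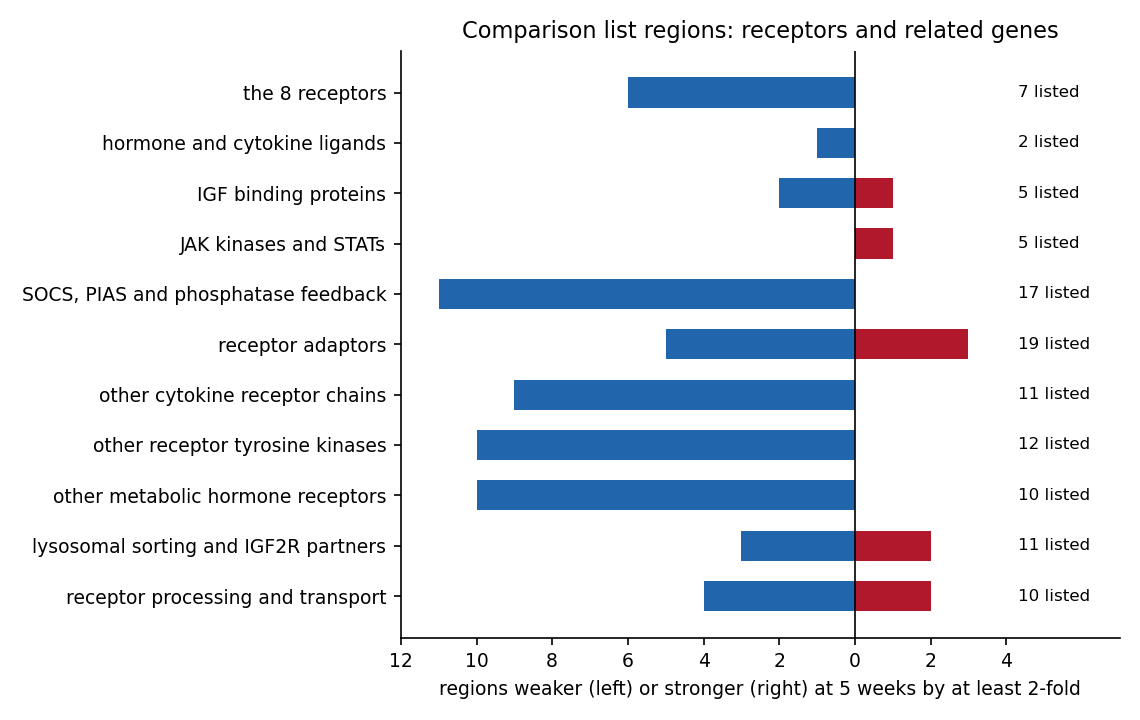
Number of regions of the comparison list that were weaker (blue, left of 0) or stronger (red, right of 0) at 5 weeks by at least 2-fold, for the 8 receptors and the 10 lists of related genes, with the number of listed regions at the right. The receptors have 6 weaker and 0 stronger of 7, and stronger regions appear only in the IGF binding proteins, the JAK kinases and STATs, the adaptors, the sorting genes and the processing genes.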

How the data were processed

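MeRIP-seq was done on 4 libraries, 1 IP and 1 input from 1 pool of ARC tissue of 3 rats at each age. Reads were filtered with fastp 0.19.4 and aligned with HISAT2 2.0.4, by the tool names in the submitters' processing notes. The study's methods name Cutadapt for this step instead, so the sources differ on the trimming tool. Not given in the sources used here were how peaks were called, how libraries were scaled to each other and which annotation was read. The only build in those notes is human, although chromosomes and gene IDs belong to rat; the listed coordinates are therefore printed without a build, with starts counted from 1. The log2 enrichment of IP over input and each peak's p-value are as the authors deposited them, made by their caller for each age. The deposited comparison list also holds the authors' own log2 fold change, p-value and adjusted p-value between the ages. The authors' p-value and adjusted p-value were not used as results. The difference was recomputed as log2 enrichment at 5 weeks minus that at 3 weeks. It equals the authors' log2 fold change to within 5.1e-14, so it is the same quantity and not a second source. The p-value was read only to learn which regions the list holds (largest 0.0499).

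Peaks were taken by gene symbol. Peaks of the 2 ages were paired where they overlapped 1-to-1 on the same strand and gene by at least 1 base. Weaker and stronger mean a difference of at least 2-fold in the comparison list. Related genes named in the text are up to 3 per list, those with the largest difference past 2-fold. With 1 pool per age no test was run. The members and lists were chosen with earlier results of these data known. The alternatives were other fold thresholds (1.5 and 3), centring on the median, 1 peak per gene, the mean over the peaks of a gene, a stricter overlap and stricter peak lists. Scripts ran in Python 3.11.15 with pandas 2.3.3 and were tested on simulated data.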

Additional observations from a re-analysis of the deposited data

How the results depend on the processing

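No paired analysis was possible because each age was a single pool. The count of 6 weaker receptor regions of 7 was 7 at a 1.5-fold threshold and 2 at a 3-fold threshold. With differences centred on the median of the comparison list it was 1, beside 13.3% of all listed regions. Centred on the median of all pairs it was 2. Among the 12 pairs it was 4 of 12 as they stand, a smaller share than 6 of 7, beside 14.2% of all pairs. It was 1 with each pair centred on the median of its annotated region, an alternative chosen after seeing the data. Shares over all regions or pairs were not worked out at 1.5-fold, at 3-fold or for centring on pairs or annotated regions, so those counts have no background. The median difference of -1.17 became -0.22 when centred on the comparison list. The paired median of -0.83 became -0.54 centred on the median of all pairs and -0.46 centred on that of each pair's region, and lay between -0.83 and -0.94 under the other alternatives. The number of stronger receptor regions was 0 under each alternative run, and 83.3% of 3-week and 55.6% of 5-week peaks still overlapped when 50% of the peak had to be shared. Without replicates or read counts, neither rat-to-rat spread nor counting error can be set beside these values, and peaks just under the caller's threshold are not seen. Enrichment is relative to input and says nothing of transcript level.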
